A study of Caenorhabditis elegans with 8 samples.

Results

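The genes described here are flp-13, flp-24, nlp-8, nlp-14 and nlp-22, which encode neuropeptides with a known sleep-promoting role and act from neurons other than RIS. They were chosen by name, and each was found on the array through 1 probe whose target maps to its locus, F33D4.3 for flp-13, C24A1.1 for flp-24, D2005.2 for nlp-8, D1009.4 for nlp-14 and T24D8.3 for nlp-22. These are 5 of the 19794 named genes and 5 of the 43603 probes on the array. The study asked which genes need aptf-1, a gene for an AP2 family transcription factor that the RIS neuron requires to induce sleep. Total RNA came from whole hermaphrodite Caenorhabditis elegans at the L4 sleep stage, in 4 samples of aptf-1(gk794) mutants and 4 samples of the wild-type strain N2, grown at 21.5 °C on agar with bacteria. Each sample pooled about 200 animals picked one by one, and each was hybridized to 1 single-color array. The study describes aptf-1 mutants as lacking detectable immobility, and the comparison is thus one of genotype and, by that account, of behavior too.

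In C. elegans larvae, sleep falls in the time before each molt. The interneuron RIS induces this sleep and releases FLP-11 peptides. A separate route to quiescence runs through the ALA neuron, which responds to EGF and, after cellular stress, brings on a sleep-like state through secreted peptides. FLP-13, FLP-24 and NLP-8 act together in this ALA output, and NLP-14 is another ALA peptide that promotes stress-induced sleep. NLP-22 is made in the RIA interneurons, promotes quiescence around the molt, and its transcript cycles with the larval stages in phase with lin-42, the worm homolog of the clock gene period. Each of these genes encodes a precursor protein that is cut into short peptides, which are released from dense-core vesicles. Some of the peptides, but not all, are also amidated. Most of the genes are also expressed in neurons other than the ones named, and RNA of whole animals sums over all of them.

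Each signal is a log2 intensity from which the array's own 75th percentile was subtracted, so a value of 0 is a fairly bright probe. That percentile ranged from 431 to 839 intensity units on the mutant arrays and from 316 to 751 on the N2 arrays. The arrays lay on 2 slides, each with 2 arrays of each genotype, but the mutant always lay at positions 3 and 4 and N2 at positions 1 and 2. Genotype and position on the slide therefore cannot be told apart. The first principal component, with 35.9% of the variance, set the mutant arrays labelled replicates 2 and 4, both at position 4, apart from the other 6 arrays. The aptf-1 probe was well above background on 2 of 4 mutant arrays and on 4 of 4 N2 arrays. That probe's signal was highest of all 8, at -4.29, on an array whose label is aptf-1(gk794) replicate 3, and groups are named here by their labels. Whether the probe lies inside the gk794 deletion was not checked, so it does not settle the labels. flp-11, measured by 8 probes, had -0.67, -0.71, -0.69 and -0.64 in the 4 mutant samples, replicate 3 included, against 0.60, 0.47, 0.45 and 0.49 in the N2 samples.

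Of the 5 genes, 4 were well above background on all 8 arrays and could be tested, namely flp-13, flp-24, nlp-8 and nlp-14. None of the 4 differed between aptf-1(gk794) and N2 at an adjusted p under 0.05 and a change of at least 1.5-fold in limma. The log2 differences were -0.15 for flp-13, -0.06 for flp-24, -0.06 for nlp-8 and 0.24 for nlp-14, and their adjusted p ranged from 0.466 to 0.798 in limma. The groups of 4 arrays overlapped for each of the 4 genes. Of all 18315 genes tested, 11 passed the same threshold, or 0.0601%, and of the 32019 probes tested 19 passed, or 0.0593%, so 0 of 4 is what so rare a call gives for most short lists. Without adjustment, 0 of the 4 had a limma p under 0.05, against 12.1% of all genes. In whole animals, fewer cells of a type and less RNA per cell cannot be told apart, and this holds for all values that follow.

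**Figure D1:**
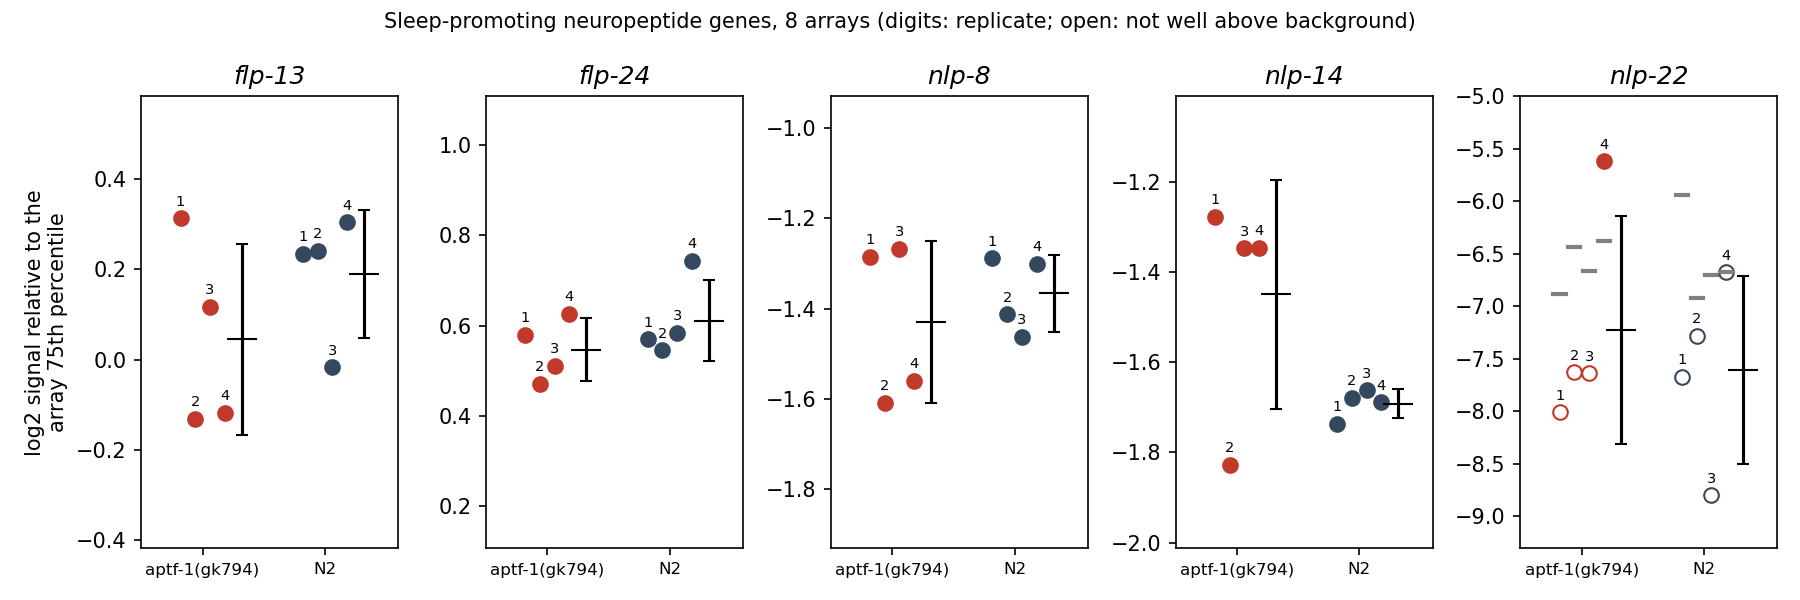
Log2 signal, less the array's own 75th percentile, for the 5 genes, with aptf-1(gk794) left of N2. Points are single arrays numbered by replicate, open points were not well above background, bars are the mean and SD of 4 arrays, and grey dashes for nlp-22 mark the lowest signal well above background on that array; the groups overlap in each of the 5 panels, and nlp-14 in the mutant lies above N2 on 3 of 4 arrays.

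The precision of these values matters more than the missed threshold, since a p above the threshold does not show that 2 groups are alike. The 95% confidence interval of the log2 difference in limma ran from -0.44 to 0.15 for flp-13 and from -0.25 to 0.12 for flp-24. It ran from -0.31 to 0.18 for nlp-8 and from -0.05 to 0.54 for nlp-14. All 4 intervals thus lay inside a 1.5-fold change in both directions, which is 0.58 on the log2 scale. As shares of the N2 signal, the lowest values these intervals allow were 73.8% for flp-13, 84.2% for flp-24, 80.7% for nlp-8 and 96.5% for nlp-14. An interval this narrow was common on these arrays, because 61.7% of all genes tested had one inside 1.5-fold. Each interval covers 1 gene and was not widened for the number of genes.

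flp-13 encodes FMRFamide-like peptides and is the best known of the ALA effectors of sleep. Its log2 signal was 0.31, -0.13, 0.12 and -0.12 in the 4 mutant samples, against 0.23, 0.24, -0.02 and 0.30 in the N2 samples. Mutant replicate 1 was the highest of all 8 arrays and mutant replicates 2 and 4 were the lowest, so the mutant spanned the whole range of N2. The means were 0.05 ± 0.21 in the mutant and 0.19 ± 0.14 in N2 (SD, n = 4 each), which put the mutant at 90.4% of the N2 signal. The difference of -0.15 (SE 0.13) gave an exact permutation p of 0.257, two-sided, and a limma adjusted p of 0.620. It was -0.02 on slide 1 and -0.27 on slide 2. 48.9% of all genes had a smaller absolute difference than flp-13, so its difference was of ordinary size.

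flp-24 encodes an FMRFamide-like peptide that acts with FLP-13 in stress-induced sleep. It was the steadiest of the 4 genes, with 0.58, 0.47, 0.51 and 0.63 in the mutant samples and 0.57, 0.55, 0.58 and 0.74 in the N2 samples. N2 replicate 4 was the highest of the 8 arrays, and the other 7 lay within the spread of the mutant. The means were 0.55 ± 0.07 in the mutant and 0.61 ± 0.09 in N2 (SD, n = 4 each). The difference of -0.06 (SE 0.08) gave an exact permutation p of 0.343, two-sided, and a limma adjusted p of 0.731, and the mutant kept 95.7% of the N2 signal. On slide 1 the flp-24 difference was -0.05 and on slide 2 it was -0.08. Only 22.9% of all genes tested had a smaller absolute difference.

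nlp-8 encodes a neuropeptide-like protein of ALA and other neurons. Its signal was -1.28, -1.61, -1.27 and -1.56 in the mutant samples, against -1.29, -1.41, -1.46 and -1.30 in the N2 samples. Mutant replicates 1 and 3 lay at the top of all 8 arrays and mutant replicates 2 and 4 at the bottom, with all N2 arrays between them. The means were -1.43 ± 0.18 in the mutant and -1.37 ± 0.08 in N2 (SD, n = 4 each). The difference of -0.06 (SE 0.11) gave an exact permutation p of 0.600, two-sided, and a limma adjusted p of 0.798. It was -0.07 on slide 1 and -0.06 on slide 2.

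nlp-14 encodes a precursor of neuropeptide-like peptides of ALA and other neurons, and it was the only one of the 4 whose mean was higher in the mutant. Its signal was -1.28, -1.83, -1.35 and -1.35 in the mutant samples, against -1.74, -1.68, -1.66 and -1.69 in the N2 samples. Mutant replicates 1, 3 and 4 lay above every N2 array, while mutant replicate 2 lay below all of them. The N2 arrays were close together, and the means were -1.45 ± 0.25 in the mutant and -1.69 ± 0.03 in N2 (SD, n = 4 each). The difference of 0.24 (SE 0.13) corresponds to 118% of the N2 signal, at an exact permutation p of 0.143, two-sided, and a limma adjusted p of 0.466. It was 0.15 on slide 1 and 0.34 on slide 2. 1 array decided its size, because without mutant replicate 2 the nlp-14 difference was 0.37 with an SE of 0.08 and an adjusted p of 0.216 in limma. With and without that array, nlp-14 therefore did not pass.

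nlp-22 encodes the RIA peptide that promotes quiescence around the molt. Its probe was well above background on 1 of 4 mutant arrays and on 0 of 4 N2 arrays, so it did not enter the test. Its raw spot signal ranged from 20 to 32 intensity units over a local background of 16 to 21, a ratio of 1.18 to 1.68. The normalized signal was -8.01, -7.63, -7.64 and -5.62 in the mutant samples, against -7.67, -7.28, -8.80 and -6.67 in the N2 samples. Mutant replicate 4, at -5.62, was the one array well above background, and the lowest signal with that status lay between -6.92 and -5.94 depending on the array. The N2 mean set at that floor was -6.56, above the mutant mean of -7.22, so no fold change is given. For nlp-22, a difference between the genotypes was not detectable with this probe at this signal.

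By contrast, the raw spot signals of the 4 tested genes stood 6.45-fold to 67.2-fold over their local background. They were 312 to 933.5 intensity units for flp-13, 393 to 1076 for flp-24, 142.5 to 351 for nlp-8 and 100 to 312 for nlp-14. The dimmest of these spots, nlp-14 on N2 replicate 1, was on the array with the lowest 75th percentile.

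The 4 genes did not vary over the arrays in 1 common way. flp-13 and nlp-8 were most alike, with a root mean square difference of 0.089 between their mean-centred log2 signals over the 8 arrays, and nlp-14 was the least like flp-13, at 0.25. Both flp-13 and nlp-8 were lower on each of the mutant arrays at position 4 than on each of those at position 3. The mean of position 4 minus position 3 in the mutant was -0.34 for flp-13, -0.31 for nlp-8, -0.27 for nlp-14 and 0.003 for flp-24. 30.0% of the genes compared were lower on both position 4 arrays in this way and 20.05% were higher on both, and 28.2% differed by more than flp-13 did. The part of slide position in these values was not tested within N2. Without the arrays labelled mutant replicates 2 and 4, an alternative chosen after seeing the data, the difference between the genotypes was 0.025 for flp-13, 0.090 for nlp-8, 0.38 for nlp-14 and -0.07 for flp-24, and none passed in limma. The directions of flp-13 and nlp-8 thus rested on those 2 arrays.

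**Figure D2:**
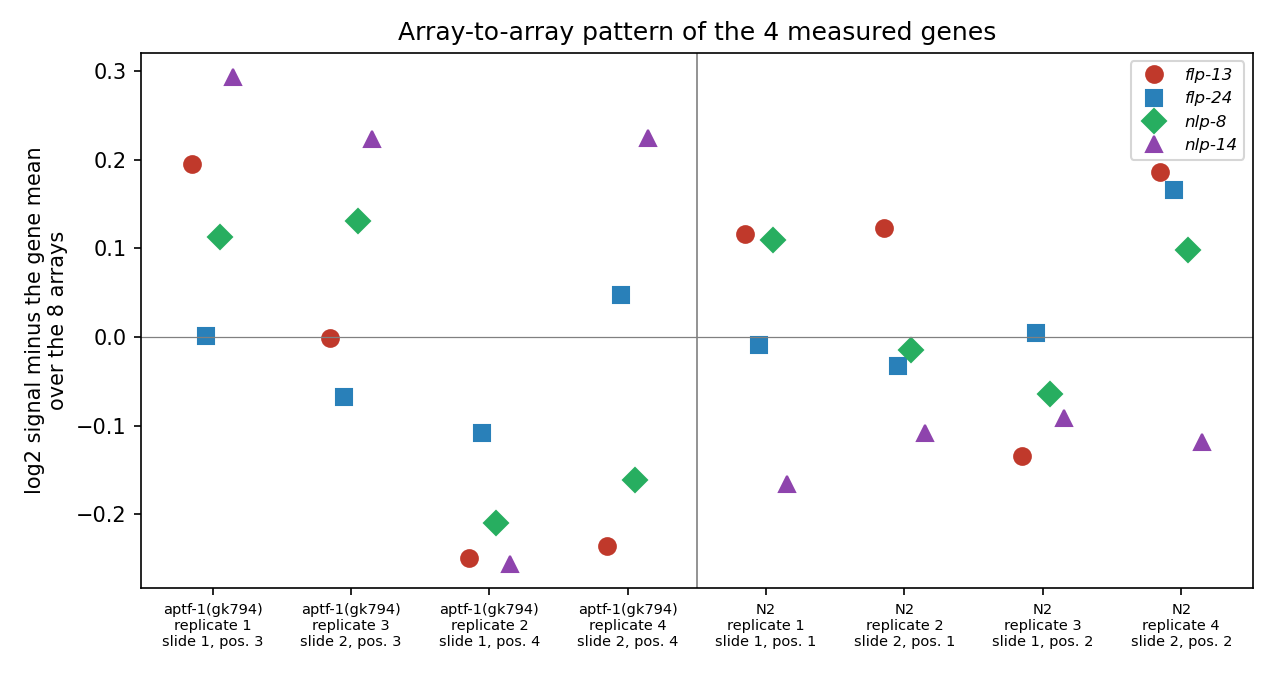
Log2 signal of each of the 4 measured genes minus its mean over the 8 arrays, with the 4 aptf-1(gk794) arrays left of the 4 N2 arrays and the slide and position of each array below it. flp-13 and nlp-8 are low on both mutant arrays at position 4, nlp-14 is low on only 1 of these, and flp-24 stays within 0.17 of its mean.

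As a description, the named genes nearest in pattern were looked up among 14882 others by the same root mean square measure. They were coh-1, a cohesin subunit gene (0.034), and vps-29 (0.049) for flp-13, and R07E3.4 (0.017) and R10E4.9 (0.040) for flp-24. For nlp-8 they were inpp-5K (0.037) and Y51F10.4 (0.051). For nlp-14 they were cat-2, which encodes the tyrosine hydroxylase of dopamine synthesis (0.049), and unc-84 (0.070). The median over all genes was between 0.19 and 0.27, and with 8 arrays and this many genes some are always close. None of these 8 genes passed between the genotypes, with adjusted p from 0.457 to 0.803 in limma. That follows from their choice, because they were picked for likeness to genes that did not pass. None of them is another sleep-promoting peptide of the list.

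flp-11, the sleep-promoting peptide gene of RIS, gave the scale for these values. It was chosen for this with its fall in the mutant already known. Its log2 difference was -1.18 (SE 0.07, 95% interval -1.34 to -1.02), which left 44.1% of the N2 signal (limma adjusted p = 0.00282). It was -1.22 within slide 1, -1.14 within slide 2 and -1.18 without both mutant arrays at position 4, with limma adjusted p of 0.873, 0.410 and 0.0955, so with these fewer arrays flp-11 did not pass. The signal of flp-11 minus that of flp-13 on the same array was -0.99, -0.58, -0.80 and -0.52 in the mutant samples, against 0.37, 0.23, 0.47 and 0.18 in the N2 samples. The groups did not overlap, and relative to flp-13, flp-11 differed by -1.04 between the mutant and N2. Measured the same way, it differed by -1.12 relative to flp-24, by -1.12 relative to nlp-8 and by -1.42 relative to nlp-14. Each of these 4 comparisons had an exact permutation p of 0.0286, two-sided, the smallest that 4 against 4 arrays can give. This outcome was fixed in advance, because none of the 4 genes ranged over more than 0.55 across all arrays. flp-11 itself went no higher than -0.64 in the mutant and no lower than 0.45 in N2, which is a wider gap. The groups thus had to separate, and these p-values add no evidence beyond the flp-11 difference itself. The 4 comparisons share the flp-11 values and are not independent of each other.

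**Figure D3:**
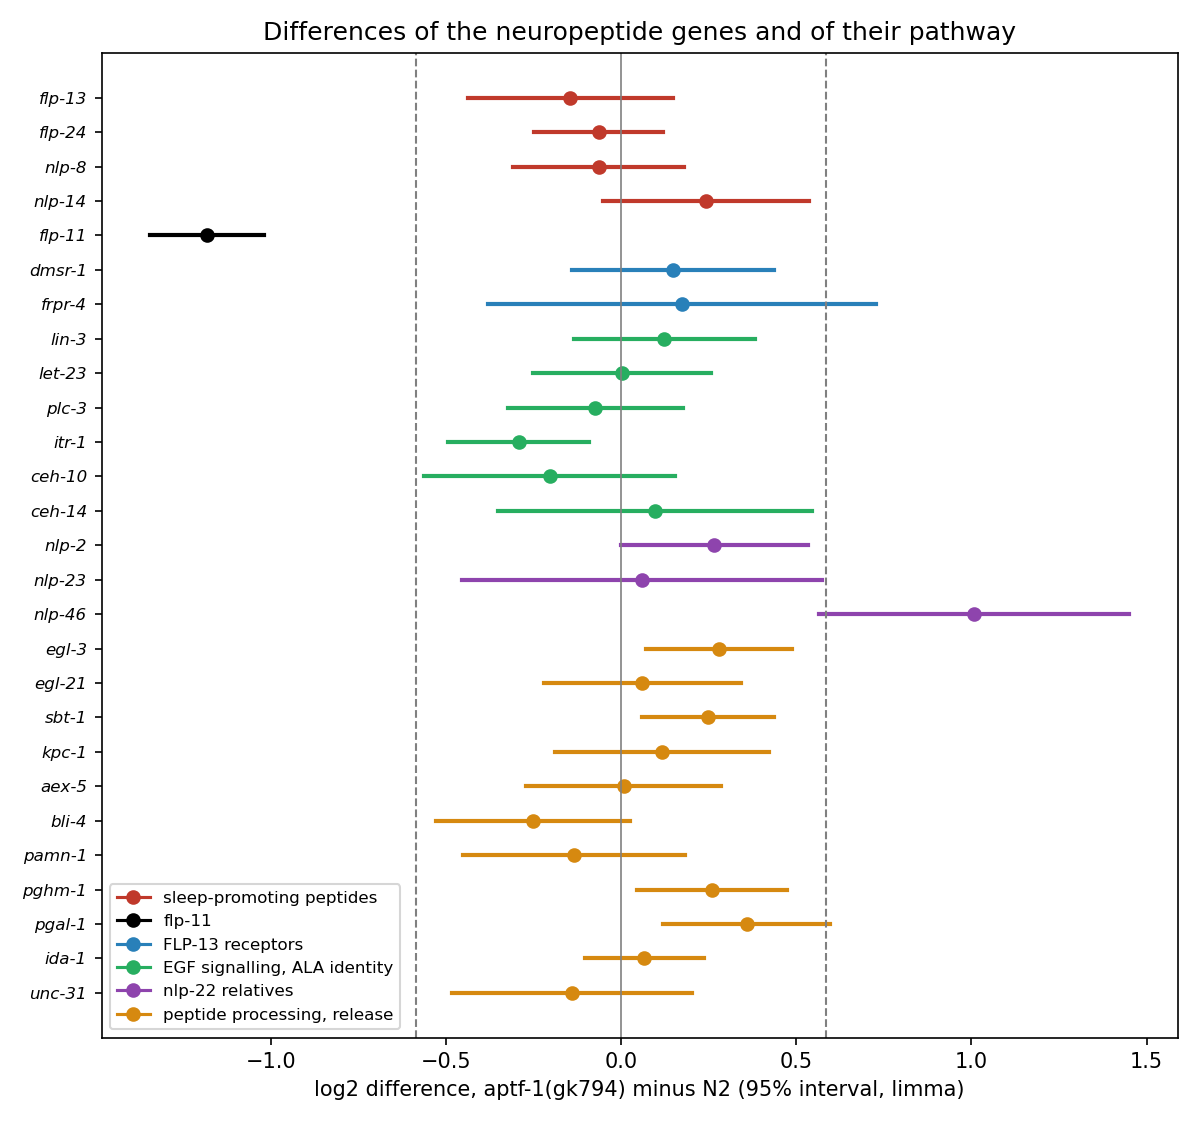
Log2 difference of aptf-1(gk794) minus N2 with its 95% interval in limma for the 4 measured sleep-promoting peptide genes, flp-11 and the listed genes of their pathways, with dashed lines at a 1.5-fold change. The intervals of the 4 genes lie between the dashed lines, and that of flp-11, from -1.34 to -1.02, lies wholly below them.

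**Figure D4:**
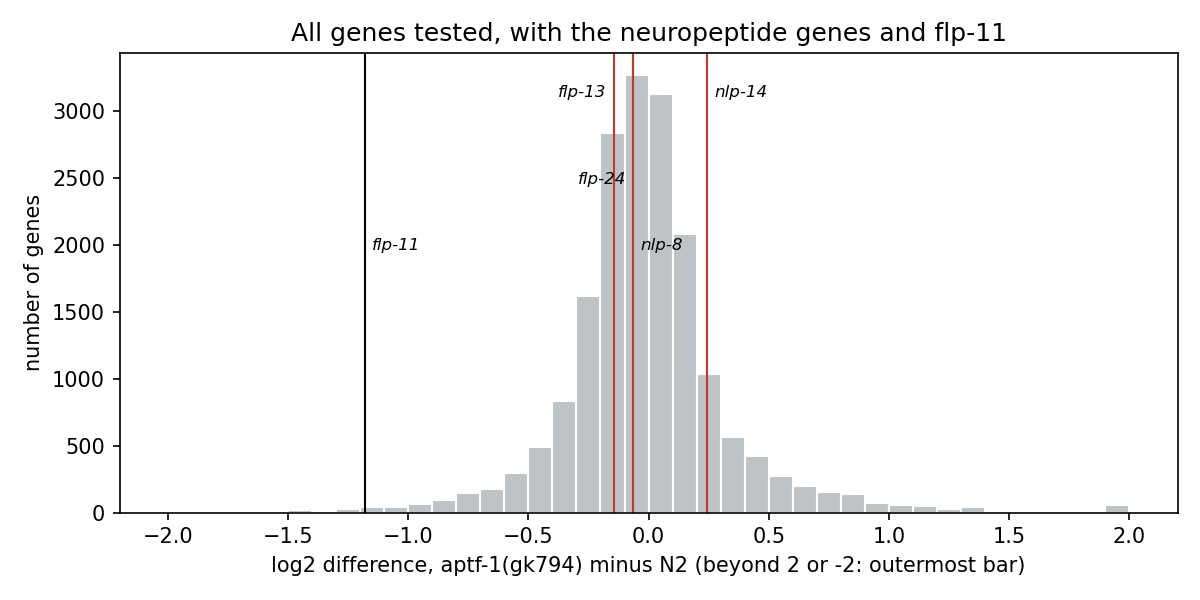
Number of genes by log2 difference of aptf-1(gk794) minus N2 in bins of 0.1 over 18315 genes tested, with red lines at the 4 genes and a black line at flp-11; differences beyond 2 or -2 are in the outermost bars. flp-24 and nlp-8 share 1 position at -0.06, near the centre, and nlp-14 exceeds 68.7% of all genes in absolute difference.

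The receptors and the upstream genes of the ALA peptides were also read. dmsr-1 and frpr-4 encode G protein-coupled receptors through which FLP-13 peptides act. Both were tested and neither passed, with log2 differences of 0.15 for dmsr-1 (SE 0.13, adjusted p = 0.609 in limma) and 0.17 for frpr-4 (SE 0.24). In the EGF signalling and ALA identity list, 6 of 7 genes could be tested, 0 passed in either direction and the median log2 difference was -0.04, beside -0.03 over all genes. Among them, lin-3, the EGF ligand, differed by 0.12, let-23, its receptor, by 0.003, and plc-3, a phospholipase that acts downstream of the receptor, by -0.07. The smallest p in this list was that of itr-1, the inositol trisphosphate receptor, with a log2 difference of -0.29 (SE 0.09, adjusted p = 0.293 in limma). itr-1 had -0.84, -0.93, -0.85 and -0.79 in the mutant samples, against -0.67, -0.63, -0.38 and -0.57 in the N2 samples, so its groups did not overlap, as for 8.0% of all genes. itr-1 acts in many tissues besides ALA.

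The homeodomain genes that set ALA identity were dim. ceh-10 had a log2 difference of -0.20 and ceh-14 of 0.10, and ceh-17 was well above background on 0 of 4 mutant arrays and 1 of 4 N2 arrays. Of the RIA glutamate receptor genes, glr-6 differed by -0.10, while glr-3 was well above background on 1 of 4 mutant arrays and 3 of 4 N2 arrays. In 11 genes used by all neurons, 0 passed, 6 were higher and 5 lower in the mutant, and the median log2 difference was 0.01. The mean log2 signal over these neuronal genes ranged from -2.03 to -1.75 on the mutant arrays and from -1.90 to -1.73 on the N2 arrays. In lists marking other tissues and the adult stage, 0 passed. All tested genes were lower in the mutant for body wall muscle (4, median log2 difference -0.15), intestine (4, -0.27), sperm (5, -0.07) and adult (5, -0.35). Over all 18315 genes tested, 9981 were lower in the mutant and the median was -0.03. The adult list held only vit genes and the sperm list several msp genes, so members of these lists are not separate markers. Epidermis, pharynx and germline went both ways, with medians of 0.02, 0.06 and 0.005. The part of tissue and stage in the values of the 4 genes was not tested.

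Peptide precursors need cutting enzymes before they can act, so the processing machinery was read as well, with the enzymes of amidation. All 11 listed genes were tested, 0 passed, and the median log2 difference was 0.07. The smallest p was that of pgal-1, which encodes an enzyme of the last amidation step, with a log2 difference of 0.36 (SE 0.10, adjusted p = 0.287 in limma). pgal-1 had 2.70, 2.90, 2.60 and 3.01 in the mutant samples, against 2.47, 2.38, 2.47 and 2.46 in the N2 samples. In 4 of the 11 genes, all mutant arrays lay above all N2 arrays, and in 0 the reverse, where 8.0% of all genes did not overlap in either direction. After their values were seen, the other 3 were named as egl-3, a proprotein convertase (0.28), sbt-1, its chaperone (0.25), and pghm-1, an amidating enzyme (0.26), and each had an adjusted p above 0.05 in limma. egl-21, the carboxypeptidase that trims the cut peptides, differed by 0.06, and unc-31, which primes dense-core vesicles for release, by -0.14.

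The relatives of nlp-22 were measured better than nlp-22 itself. nlp-2 and nlp-23 had log2 differences of 0.27 and 0.06, and neither passed. nlp-46 had -2.56, -3.29, -2.92 and -3.43 in the mutant samples, against -4.24, -3.90, -4.10 and -3.98 in the N2 samples. All 4 mutant arrays lay above all 4 N2 arrays, where 8.0% of all genes did not overlap in either direction. The nlp-46 difference of 1.01 (SE 0.19) had an adjusted p of 0.131 in limma, which did not pass.

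Among the other peptide genes, 26 flp genes and 68 nlp genes could be tested. These counts include flp-11, nlp-2, nlp-23 and nlp-46, whose values are given above. In the flp genes 1 passed, flp-11, lower in the mutant, and the median log2 difference was 0.10. In the nlp genes 0 passed and the median was 0.06. nlp-25 had the smallest p of the nlp genes, with a difference of 2.08 (SE 0.26) and an adjusted p of 0.0510 in limma. In 16 of these 94 genes (17.02%) the groups did not overlap, against 8.0% of all genes, with the mutant above N2 in 11 and below it in 5. The 11 include nlp-46 and the 5 include flp-11. The median absolute difference over the 94 genes was 0.21, above those of flp-13, flp-24 and nlp-8 and below that of nlp-14.

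Because nlp-22 cycles with the molts, genes that mark the molting cycle were read beside it. Of 14 listed genes, 13 were tested and 0 passed, with a median log2 difference of 0.28 and single values from -0.96 to 2.65. In the mutant 9 were higher and 4 lower, beside 8334 higher and 9981 lower over all genes. The 2.65 was that of mlt-10, named after its values were seen. mlt-10 had -2.82, -2.34, 2.20 and 1.54 in the mutant samples, against -3.49, -1.96, -3.79 and -2.77 in the N2 samples. Its difference thus rested on mutant replicates 3 and 4, both on slide 2. The groups did not overlap in 3 of the 13, where 8.0% of all genes did not overlap in either direction. The mutant lay below N2 in noah-2 and lin-42. It lay above N2 in mlt-9 (log2 difference 1.18, adjusted p = 0.390 in limma), which was named after its values were seen. mlt-9 had -2.82, -2.79, -0.66 and -1.30 in the mutant samples, against -3.11, -2.90, -3.03 and -3.24 in the N2 samples. Its highest values were those of mutant replicates 3 and 4, as for mlt-10. The smallest p was that of noah-2, which encodes a component of the cuticle precursor and had -4.61, -5.44, -4.42 and -4.73 in the mutant samples, against -3.91, -3.32, -4.20 and -3.94 in the N2 samples. The noah-2 difference was -0.96 (SE 0.26, adjusted p = 0.245 in limma). lin-42, named after its values were seen because nlp-22 follows its rhythm, had -2.20, -2.40, -2.44 and -2.28 in the mutant samples, against -0.93, -0.80, -2.17 and -1.73 in the N2 samples. All mutant arrays were below all N2 arrays, but N2 replicate 3 lay close to the mutant, and the lin-42 difference of -0.92 (SE 0.29) had an adjusted p of 0.314 in limma. The mean over the 13 genes ranged from -2.73 to -1.35 on the mutant arrays and from -2.59 to -2.29 on the N2 arrays. The part of molting stage in the values of the sleep-promoting genes was not tested.

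Some alternatives in the processing or the arrays moved the differences by more than 1.5 times, and flp-13, flp-24 and nlp-8 each changed sign in 1. With normexp background correction the difference was -0.06 for flp-13, 0.0017 for flp-24 and 0.14 for nlp-14. Over 20 alternatives each, flp-13 ranged from -0.27 to 0.025, flp-24 from -0.09 to 0.0017, nlp-8 from -0.12 to 0.090 and nlp-14 from 0.14 to 0.38, and 0 of these fits made a call. With mutant replicate 3 left out, the array with the highest aptf-1 signal, the differences were -0.17 for flp-13, -0.05 for flp-24, -0.12 for nlp-8 and 0.21 for nlp-14.

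**Figure D5:**
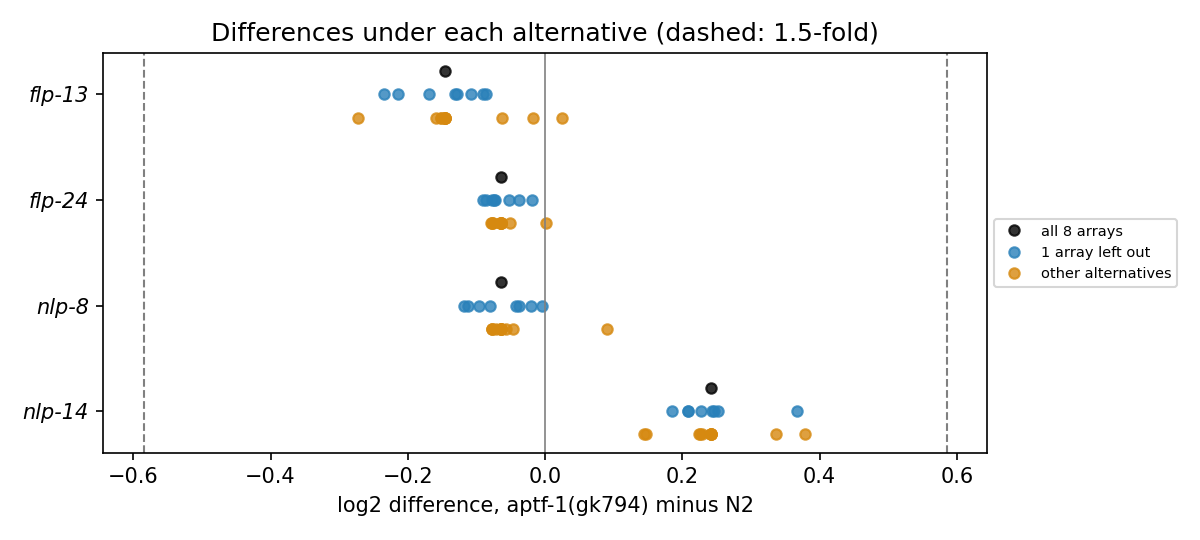
Log2 difference of aptf-1(gk794) minus N2 for each of the 4 genes with all 8 arrays (black), with 1 array left out (blue) and under the other alternatives (orange), with dashed lines at a 1.5-fold change. The values lie between the dashed lines in each case, and nlp-14 stays above 0, from 0.14 to 0.38.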

How the data were processed

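Groups and replicate numbers came from the sample labels. The authors deposited single-color scanner output of Agilent Feature Extraction 10.7.3.1, whose processed intensity has background and spatial trend removed but is not scaled between arrays, and a table of between-array normalized intensities, used here only as an alternative. The array design names an older genome build than the reference, so no coordinates are given. Control spots and outlier-flagged spots (18 to 62 on an array) were dropped, log2 processed intensity was averaged per probe, and the 75th percentile of each array was subtracted. To be tested, a probe had to exceed background clearly on each of the 4 arrays of either genotype (32019 of 43603 did), and tested probes were averaged per gene. Names came from an NCBI table for WBcel235, which matched 78.6% of probes.

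limma 3.58.1 in R 4.3.3 (lmFit, eBayes, genotype only, two-sided) was run over 18315 genes and unnamed targets, with Benjamini-Hochberg adjustment and a threshold of adjusted p under 0.05 and 1.5-fold, the fold change the study used. Exact permutation tests ran over 70 assignments of the 8 arrays. The number of arrays limits the precision, and no label says that samples came from separate cultures. The 5 genes and all lists were chosen with earlier results of these data known. In the lists, called genes and the gene with the smallest p were named, and for each of the 4 tested genes the 2 most similar in pattern. The script was tested on simulated data. Alternatives were other scalings, normexp (offset 50, on median signals), the deposited intensities, other filters, probe medians, slide and replicate blocks, single slides and leaving out arrays. Python 3.11.15, numpy 2.4.6, pandas 2.3.3 and matplotlib 3.10.9 were used.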

Additional observations from a re-analysis of the deposited data

Results flagged for a closer look

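For the 5 genes, flp-11 and aptf-1, the gap between the highest or lowest array and the next one was divided by the range of its group of 4. In 2 of 14 groups this exceeded Dixon's 95% critical value for 4 samples, where chance alone would give about 0.70. For nlp-14, mutant replicate 2 lay below the other 3 mutant arrays by 0.873 of the range. For nlp-22, mutant replicate 4 lay above the other 3 by 0.840 of the range, and it was the only array on which this probe was well above background.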

How the results depend on the processing

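Of the 4 tested genes, nlp-14 kept its direction in all 20 alternatives, and flp-13, flp-24 and nlp-8 each kept theirs in 19 of 20, with no calls. The flp-24 difference turned to 0.0017 with normexp, and without both mutant arrays at position 4 flp-13 turned to 0.025 and nlp-8 to 0.090. With 1 array left out, the differences ranged from -0.23 to -0.09 for flp-13, from -0.09 to -0.02 for flp-24, from -0.12 to -0.005 for nlp-8 and from 0.18 to 0.37 for nlp-14. For nlp-22, at background, no difference is given. The number of probes called was 19, and it was 12 with no filter, 0 within slide 1, 0 within slide 2, 0 without both position 4 arrays and 4 to 10 with 1 array left out. The calls in the pathway lists numbered 1 (flp-11), 2 with normexp (with nlp-25), 3 with the background filter applied to all 8 arrays (with nlp-25 and nlp-63), 0 within slide 1, 0 within slide 2, 0 without both position 4 arrays and 1 to 2 with 1 array left out. The cause was not tested, beyond fewer arrays where arrays were left out. The replicate block gave 0 probes and 0 pathway calls, and with it flp-11 kept its difference of -1.18 but had an adjusted p of 0.153 in limma. Same-numbered arrays deviated from their group means with correlations of -0.17, 0.24, 0.15 and 0.18, and 2 of 8 arrays correlated best with their own number, so the numbers were not treated as a pairing.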
